A study of Mus musculus with 6 samples.

Results

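Lipid droplet coat and lipolysis genes were examined in whole hind limb muscle of mice with and without a C26 tumor. The 10 genes were chosen by name and comprise the perilipins Plin1, Plin2, Plin3, Plin4 and Plin5, the droplet fusion gene Cidec, the lipase genes Pnpla2 and Lipe, and the lipase regulators Abhd5 and G0s2. Each of the 10 had its own probe set among the 21212 probe sets of the array table, of which 18782 carry 1 gene symbol used here. All samples came from male CDF1 mice that were 8 weeks old when purchased. C26 mice had received colon 26 adenocarcinoma cells in PBS and matrigel under the skin of each flank, and control mice PBS and matrigel alone. Gastrocnemius and plantaris muscles were taken 25 days after inoculation from 4 C26 and 3 control mice. RNA of 2 to 3 muscles of a group was combined into 3 C26 pools (replicates 1, 3 and 4) and 3 control pools (replicates 1, 2 and 3). One Mouse Gene 1.0 ST array (Affymetrix) was run per pool. The labels do not tie a pool to its mice, so pools of a group may share a mouse and the p-values measure only the spread between pools.

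Fat is stored in cells as triglyceride inside lipid droplets, whose surface carries perilipins. The droplet of a fat cell is coated mainly by perilipin 1, which keeps lipases away until a hormone signal phosphorylates it. Most other cells use perilipins 2 and 3, and muscle fibers also perilipin 5. Triglyceride is broken down in sequence by adipose triglyceride lipase (Pnpla2), hormone-sensitive lipase (Lipe) and monoglyceride lipase, and the activator protein of Abhd5 and the inhibitor protein of G0s2 set the pace of the first of these enzymes. By this background Plin1, Cidec, G0s2 and Lipe were taken as adipocyte-type members, Plin2, Plin3, Plin5, Pnpla2 and Abhd5 as muscle-type members, and Plin4, which is known from adipocytes and from striated muscle, as a member of both kinds. Pnpla2 and Lipe are active in both tissues, so their placing was a choice and the split is one of emphasis.

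The arrays of a group correlated at 0.994 to 0.996 and arrays of different groups at 0.976 to 0.981 (Pearson), with array medians of 4.93 to 5.02 (log2). Values are log2 RMA values, which compare 1 gene between samples but not 1 gene with another. Receptor genes of smell and pheromone sensing, which muscle is not known to use broadly, gave a background level of 3.82 (95th percentile), and all 10 genes lay above it in each group. The words rose and fell are kept for genes with an adjusted p of at most 0.05 from limma, over all probe sets, and a change of at least 1.5-fold. By this rule 4 of the 10 rose, 2 fell and 4 did not pass, whereas 10.9% of all probe sets passed (5.94% rose and 4.95% fell). The C26 pools all lay above the control pools for 4 of the 10 genes and all below them for 3, against 19.3% and 24.6% of all probe sets, 43.9% together.

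The coat genes moved in opposite directions. Plin1, the coat gene of fat cells, had values of 4.93, 4.67 and 4.57 in C26 pools, against 6.29, 6.37 and 6.06 in control pools (log2). Every C26 pool lay far below every control pool. Plin1 averaged 4.72 ± 0.18 in C26 and 6.24 ± 0.16 in control muscle (log2, SD, n = 3 each). The difference of -1.51 (log2, SE 0.12) had an adjusted p of 4.17e-05 from limma and is 2.86-fold lower in C26 muscle. In whole muscle, fewer cells of a type and less RNA per cell cannot be told apart.

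Plin4, a coat gene of small droplets in adipocytes and striated muscle, had values of 9.41, 9.43 and 9.32 in C26 pools, against 7.79, 7.84 and 8.15 in control pools. The C26 pools were close to each other, and control replicate 3 was the highest control pool without reaching them. Plin4 averaged 9.39 ± 0.06 in C26 and 7.93 ± 0.20 in control muscle. The difference of 1.46 (log2, SE 0.11) had an adjusted p of 3.11e-05 from limma and is 2.75-fold higher. It was the largest rise among the 10 genes.

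Plin5, whose protein ties droplets to mitochondria in muscle and heart, had values of 7.32, 7.28 and 7.14 in C26 pools, against 6.42, 6.40 and 6.63 in control pools. Plin3, whose protein moves between the cytosol and young droplets, had values of 8.30, 8.24 and 8.29 in C26 pools, against 7.47, 7.47 and 7.53 in control pools. For neither gene did the groups overlap, and for Plin3 the pools of each group were nearly identical. The log2 fold change was 0.76 for Plin5 (SE 0.09, adjusted p = 0.000421 from limma), or 1.70-fold higher. For Plin3 it was 0.79 (SE 0.07, adjusted p = 8.75e-05), or 1.72-fold higher.

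Plin2, the coat gene of droplets in most cells, stood apart from these perilipins. Its values were 7.66, 7.69 and 7.93 in C26 pools, against 7.68, 7.63 and 7.53 in control pools, so that the groups overlapped. The log2 fold change was 0.15 (SE 0.09, 95% interval -0.06 to 0.36, adjusted p = 0.276 from limma), an interval that does not reach 1.5-fold. Cidec, whose protein fuses droplets in fat cells, also overlapped between groups, with 6.26, 5.90 and 6.07 in C26 pools, against 6.41, 6.30 and 6.05 in control pools. Its log2 fold change was -0.18 (SE 0.12, 95% interval -0.46 to 0.10, adjusted p = 0.315).

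**Figure D1:**
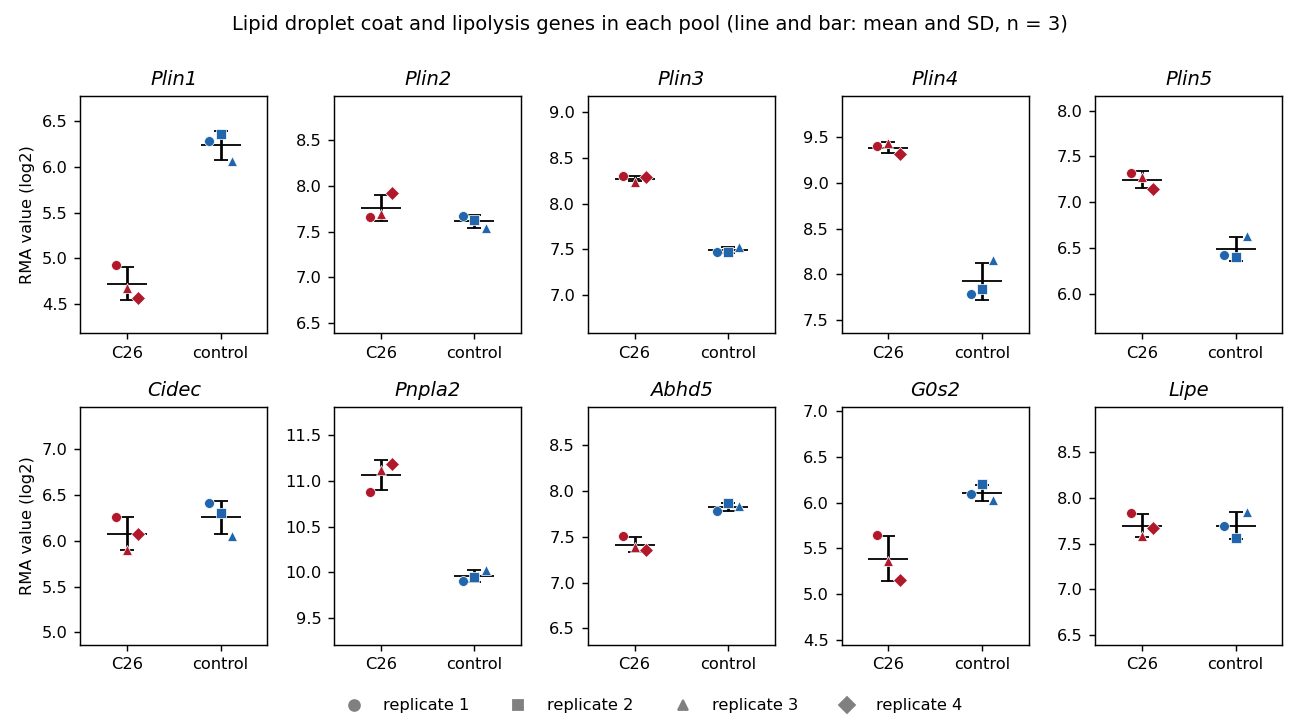
Log2 RMA value (vertical axis, the same span in each panel) of the 10 genes in 3 C26 pools (red, left) and 3 control pools (blue, right), with marker shapes for the replicate number and a line and bar for mean and SD. Plin3, Plin4, Plin5 and Pnpla2 lie higher in every C26 pool and Plin1, G0s2 and Abhd5 lower, while the groups overlap for Plin2, Cidec and Lipe.

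Plin3, Plin4 and Plin5, the 3 perilipin genes that rose, all lie on chromosome 17. In the RefSeq gene order of assembly GRCm38.p6 no protein-coding gene separates Plin4 from Plin5, and 7 lie between Plin5 and Plin3. The bases before their start sites are shown here beside those of Plin1, because these are the coat genes that rose and the one that fell. RefSeq windows were matched for all 10 genes, 13 windows in all since some genes have several start sites. Each sequence covers the 250 bases before the start site on the strand of the gene, from GRCm38.p6, and for Plin5 the upstream of its start sites. The windows are chr17:56109783-56110032 for Plin4, chr17:56117549-56117798 for Plin5, chr17:56290512-56290761 for Plin3 and chr7:79732777-79733026 for Plin1, all on the minus strand. Capitals mark the letters CCAAT, or ATTGG on the other strand, and TATAAG.
Plin4: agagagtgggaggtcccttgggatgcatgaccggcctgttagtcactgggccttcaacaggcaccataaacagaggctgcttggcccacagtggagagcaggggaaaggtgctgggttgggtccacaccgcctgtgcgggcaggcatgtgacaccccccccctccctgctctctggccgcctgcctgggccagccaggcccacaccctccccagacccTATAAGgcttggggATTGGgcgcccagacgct
Plin5: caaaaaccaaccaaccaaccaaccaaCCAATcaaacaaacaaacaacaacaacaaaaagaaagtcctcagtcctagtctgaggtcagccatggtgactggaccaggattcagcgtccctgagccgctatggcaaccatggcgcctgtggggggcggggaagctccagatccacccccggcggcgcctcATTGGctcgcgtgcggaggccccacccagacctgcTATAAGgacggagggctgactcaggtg
Plin3: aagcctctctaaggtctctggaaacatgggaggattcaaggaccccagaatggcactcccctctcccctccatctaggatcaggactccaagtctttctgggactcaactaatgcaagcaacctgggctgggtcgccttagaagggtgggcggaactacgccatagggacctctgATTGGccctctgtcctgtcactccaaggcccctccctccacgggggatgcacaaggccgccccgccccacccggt
Plin1: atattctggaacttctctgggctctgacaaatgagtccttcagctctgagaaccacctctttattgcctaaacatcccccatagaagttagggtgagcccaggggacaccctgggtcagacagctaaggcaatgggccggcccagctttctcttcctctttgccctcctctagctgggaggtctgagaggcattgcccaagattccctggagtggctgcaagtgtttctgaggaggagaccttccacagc

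The windows of Plin4 and Plin5 each held TATAAG close to the start site, from base 32 to 27 before it in Plin4 and from base 27 to 22 in Plin5. No other member had these letters, which 6.65% of all 32851 RefSeq windows hold on either strand. The CCAAT letters were found in Plin3, Plin4, Plin5 and Plin2, and in 33.8% of all windows, and Plin1 had neither motif. The response element of PPAR nuclear receptors, which control many droplet genes, was searched on each strand in its exact form and in a relaxed form with an open base in each repeat. It was in none of the 13 member windows and in 0.0335% and 0.338% of all windows. The palindromic glucocorticoid element was in none of the 13 and in 0.387% of all, and the FoxO letters TGTTTAC were in 1 window, of Lipe, and in 3.17% of all. The C/EBP letters TTNNGCAA were in windows of Plin1 and Cidec and in 9.56% of all. A match of letters is a description and not a bound site.

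Of the 10 protein-coding genes in the stretch that Plin4 and Plin3 bound, 5 rose and 0 fell (5.94% and 4.95% of all probe sets). These are the 3 perilipins, Lrg1 (log2 fold change 2.12, SE 0.09, adjusted p = 2.24e-06 from limma), which encodes a glycoprotein of the acute phase and follows Plin5 directly, and Sema6b (0.84, SE 0.11), a semaphorin gene. The genes between Sema6b and Plin3 did not pass, with log2 fold changes of -0.16 (Tnfaip8l1) to 0.39 (Ticam1). This stretch was chosen after the values were seen. It was chosen for the 3 perilipins that rose, so the count was partly set by that choice.

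The lipase side showed a rise of the first enzyme. Of its regulators among the 10 genes, G0s2 fell and Abhd5 was lower by less than 1.5-fold. Pnpla2, the gene of adipose triglyceride lipase, had values of 10.88, 11.12 and 11.19 in C26 pools, against 9.90, 9.95 and 10.02 in control pools. Each C26 pool lay clearly above each control pool, and C26 replicate 1 was the lowest of the C26 pools. Pnpla2 averaged 11.06 ± 0.16 in C26 and 9.96 ± 0.06 in control muscle. The difference of 1.10 (log2, SE 0.10) had an adjusted p of 7.9e-05 from limma and is 2.15-fold higher.

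G0s2, which encodes the protein inhibitor of this lipase, had values of 5.65, 5.37 and 5.15 in C26 pools, against 6.10, 6.20 and 6.03 in control pools. The groups did not overlap, and C26 replicate 1 lay nearest to control muscle here as well. The log2 fold change was -0.72 (SE 0.12, adjusted p = 0.00268 from limma), or 1.65-fold lower in C26 muscle. This fall did not pass in a test with unequal variances (adjusted p = 0.111).

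Abhd5, which encodes the activator CGI-58 of the same lipase, had values of 7.50, 7.39 and 7.35 in C26 pools, against 7.78, 7.87 and 7.84 in control pools. The groups did not overlap, but the difference was small. Its log2 fold change of -0.41 (SE 0.08, 95% interval -0.59 to -0.24, adjusted p = 0.00395 from limma) is 1.33-fold lower, short of the 1.5-fold minimum. Without that minimum 30.1% of all probe sets pass, and Abhd5 is 1 of the 7 members that do.

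Lipe, the gene of hormone-sensitive lipase, had values of 7.83, 7.58 and 7.67 in C26 pools, against 7.69, 7.56 and 7.84 in control pools. The groups overlapped throughout. The means were 7.69 ± 0.13 in C26 and 7.70 ± 0.14 in control muscle, and the 95% interval of the log2 fold change ran from -0.23 to 0.23 (adjusted p = 0.99 from limma). A change of 1.5-fold lies outside this interval.

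**Figure D2:**
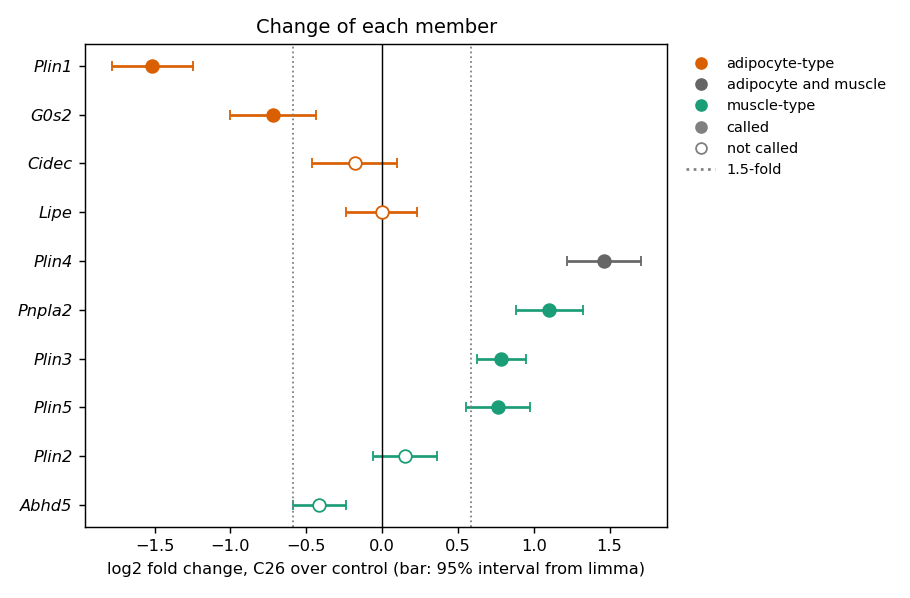
Log2 fold change, C26 over control (horizontal axis), of each of the 10 genes with its 95% interval from limma. Colors mark the member type assigned here, adipocyte-type, muscle-type or both. Filled points passed the test at 1.5-fold (dotted lines), from -1.51 for Plin1 to 1.46 for Plin4, and open points did not.

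Adipocyte-type and muscle-type members were set side by side. Of the 4 adipocyte-type members 0 rose, 2 fell and 2 did not pass, and the median of their log2 fold changes was -0.45. Of the 5 muscle-type members 3 rose, 0 fell and 2 did not pass, with a median of 0.76. Over all probe sets 5.94% rose and 4.95% fell, and the median was -0.05. The adipocyte-type median minus the muscle-type median was -1.21. Relative to the control mean of each gene, the median shift of the adipocyte-type members was -0.23, -0.55 and -0.57 in C26 replicates 1, 3 and 4, and that of the muscle-type members was 0.81, 0.75 and 0.66 in the same pools. Control pools shifted by -0.13 to 0.07 for adipocyte-type and by -0.05 to 0.04 for muscle-type members. The genes were chosen and split with earlier results known, so these values are a description. They also depend on where Pnpla2 and Lipe, which are active in both tissues, were placed. Neither type moved as a block, since Lipe and Cidec differed from Plin1 and G0s2, and Abhd5 and Plin2 from Pnpla2, Plin3 and Plin5.

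Differences between genes in their change were followed within each array, for 12 pairs of genes that were chosen after the values were seen. Plin1 changed by 0.92 more than Adipoq, the adiponectin gene of fat cells, with C26 pools shifted by -0.80, -0.79 and -1.17 against -0.08, -0.02 and 0.11 in control pools (log2). Plin1 also changed by 1.33 more than Cidec, with C26 pools at -1.31, -1.20 and -1.48 and control pools at -0.10, 0.08 and 0.02. The rise of Plin4 was 0.70 larger than that of its neighbor Plin5, with C26 pools at 0.65, 0.71 and 0.73 and control pools at -0.08, 0.00 and 0.08. Pnpla2 shifted against G0s2 by 1.38, 1.90 and 2.19 in C26 pools, against -0.05, -0.10 and 0.15 in control pools, and the smallest shift was in C26 replicate 1. For each of the 12 pairs the pools did not overlap and the exact two-sided permutation p was 0.1, also after Benjamini-Hochberg adjustment. That is the smallest p that 3 against 3 pools can give, so no pair could pass 0.05. Since the pairs were chosen with their values known, the lack of overlap is a description only. Of single probe sets, 43.9% did not overlap either.

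Markers of adipocytes were read beside the adipocyte-type members. Of 18 markers listed, 16 had a named probe set, of which 0 rose, 7 fell and 9 did not pass, 16 of 16 values were below 0, as were 12354 of all 21212 probe sets, and their median was -0.48 (log2 fold change). Their summed level lay at 9.97 to 10.17 in C26 pools and at 10.33 to 10.42 in control pools (log2). Here and for the lists below, such a sum weighs bright genes most and does not measure cell content. The brightest gene of this list was Fabp4, with means of 9.11 in C26 and 9.17 in control muscle. Adipoq had values of 4.86, 4.59 and 4.88 in C26 pools, against 5.50, 5.52 and 5.09 in control pools, and fell by 0.59 (SE 0.13, adjusted p = 0.0103 from limma). Lep, the leptin gene, averaged 3.74 in C26 and 4.36 in control muscle and fell by 0.63. Its C26 mean lay under the background, so only a fall of at least 0.54 is set by the measurement. That bound is 1.45-fold, short of 1.5-fold, although Lep is counted among the 7. By a test with equal variances 4 of the 16 fell, and by a test with unequal variances 1 fell.

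The largest falls of the list were in Aqp7, the glycerol channel gene of adipocytes that muscle also expresses (-0.99, SE 0.11), and in Rbp4, the retinol carrier gene (-0.90, SE 0.09). No marker of the 16 fell by more than Plin1. Fabp4, a fatty acid binding protein gene that capillaries also express, had a log2 fold change of -0.06 (95% interval -0.24 to 0.13). Acvr1c, Nrg4 and Tshr, the last of which is among the 7 that fell, lay under the background in each group. Of the brown adipocyte markers, Ucp1, the uncoupling protein gene, averaged 3.53 in C26 and 3.83 in control muscle, at the background. Of the 5 genes of that list, 1 rose, Dio2 of thyroid hormone activation (0.61, SE 0.12), and 0 rose without C26 replicate 4 or without control replicate 1. The part of adipocyte content in the lower Plin1 and G0s2 values was not tested.

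**Figure D3:**
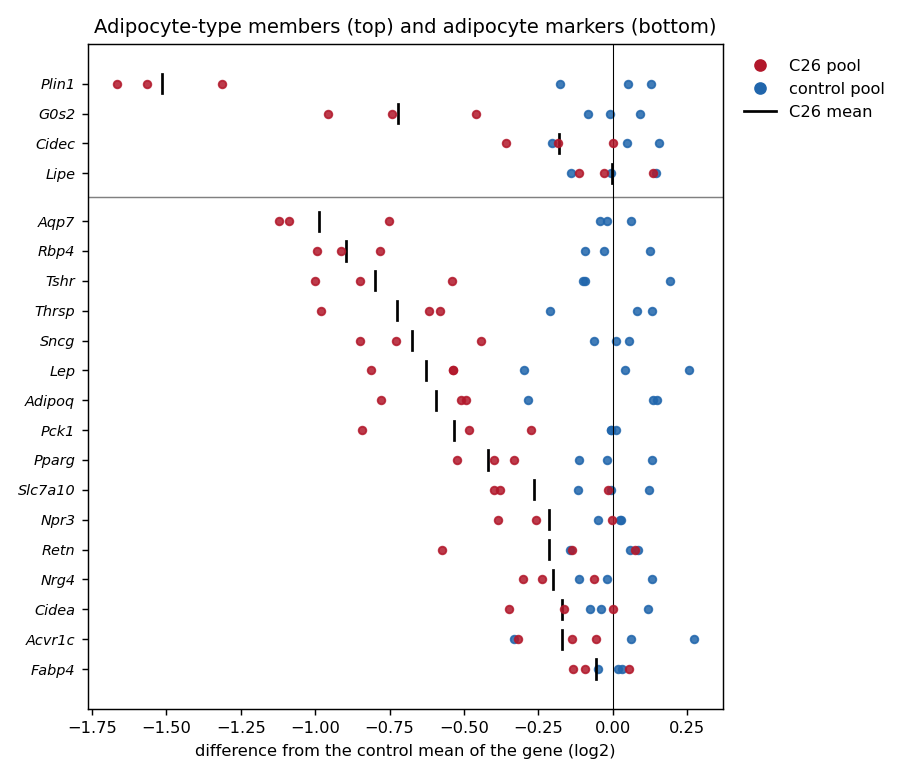
Difference of each pool from the control mean of the gene (log2, horizontal axis) for the 4 adipocyte-type members (top) and 16 adipocyte markers (bottom), with C26 pools in red, control pools in blue and the C26 mean as a line. The C26 mean of Plin1 (-1.51) lies left of that of every marker, of which Aqp7 (-0.99) is the lowest and Fabp4 (-0.06) the highest.

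Other genes of lipid droplets and of neutral lipid breakdown changed in either direction. Of 23 such genes 2 rose, 4 fell and 17 did not pass, and the median over the list was -0.08 (log2 fold change). Mgll, the monoglyceride lipase gene of the last step of lipolysis, had values of 7.12, 6.96 and 6.93 in C26 pools, against 8.13, 7.92 and 7.80 in control pools. It fell by 0.95 (SE 0.10, adjusted p = 0.000218 from limma). All C26 pools lay below all control pools.

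Ces1d, a carboxylesterase gene of triglyceride hydrolysis in fat and liver, fell by 1.42 (SE 0.16). Fitm1, which encodes a protein of the endoplasmic reticulum that forms droplets in muscle, had values of 10.17, 9.94 and 10.04 in C26 pools, against 10.97, 10.89 and 10.92 in control pools. It fell by 0.88 (SE 0.08, adjusted p = 0.000116 from limma), while its relative Fitm2 had a log2 fold change of -0.11 (SE 0.08). Pnpla3, the adiponutrin gene, fell by 0.67 (SE 0.14).

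Abhd6, another monoglyceride hydrolase gene, rose by 0.98 (SE 0.18, adjusted p = 0.00362 from limma), with 6.09, 6.70 and 6.89 in C26 pools, against 5.59, 5.65 and 5.49 in control pools. Its C26 replicate 1 lay between the other C26 pools and control muscle. Pnpla8, a calcium-independent phospholipase gene, rose by 0.66 (SE 0.08). Bscl2, the seipin gene of droplet budding, was lower by less than 1.5-fold (-0.28, SE 0.08, adjusted p = 0.0349), and Hilpda, an inhibitor gene of adipose triglyceride lipase, had a log2 fold change of 0.06 (SE 0.10). By a test with equal variances 1 of the 23 genes rose, and with quantile normalization 1 rose.

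The supply of fatty acids from the blood and the hormone control of lipolysis were read from fixed lists. Of 6 measured genes of the lipoprotein lipase system 1 rose, Angptl4, which encodes an inhibitor of that lipase (0.88, SE 0.19, adjusted p = 0.00739 from limma), and 2 rose without C26 replicate 1. The lipase gene Lpl itself had values of 10.69, 11.02 and 11.02 in C26 pools, against 10.40, 10.39 and 10.41 in control pools, and its log2 fold change of 0.51 (SE 0.10) was short of 1.5-fold. Gpihbp1, which anchors the lipase in capillaries, had a log2 fold change of 0.06 (SE 0.08). By a test with equal variances 0 of the 6 rose at these thresholds.

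Of 21 measured genes of lipolysis signaling 2 rose and 1 fell, with a median log2 fold change of -0.16. Pde4d, a phosphodiesterase gene that lowers cyclic AMP, rose by 0.95 (SE 0.16), and the insulin receptor gene Insr rose by 0.85 (SE 0.08, adjusted p = 0.000133 from limma). Prkar2b, a regulatory subunit gene of protein kinase A that is abundant in adipocytes, fell by 0.80 (SE 0.11), of which at least 0.71 is measured above the background, where its C26 mean of 3.77 was not. For the catalytic subunit gene Prkaca the difference was -0.57 (log2, SE 0.08, adjusted p = 0.00112), just short of 1.5-fold. The number that fell was 4 without C26 replicate 1 or without control replicate 3, 2 without C26 replicate 3, and 3 with cyclic loess or quantile normalization.

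Genes of transcription factors known to act on droplet and lipolysis genes changed in either direction. Of 16 such genes 4 rose, 3 fell and 9 did not pass, where 5.94% of all probe sets rose and 4.95% fell, and the median over the list was 0.11 (log2 fold change). Foxo1, which is known to raise adipose triglyceride lipase, rose by 2.08 (SE 0.07), with 9.68, 9.69 and 9.67 in C26 pools, against 7.53, 7.61 and 7.65 in control pools. Klf15, a glucocorticoid-induced regulator of lipid use in muscle, rose by 1.92 (SE 0.09, adjusted p = 4.56e-06 from limma). Ppargc1b, a coactivator gene of mitochondrial metabolism, fell by 1.62 (SE 0.10), and Rxrg, a partner receptor of PPARs, fell by 1.45 (SE 0.10).

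Pparg, the receptor that drives fat cell genes including Plin1, had values of 5.28, 5.40 and 5.47 in C26 pools, against 5.78, 5.94 and 5.69 in control pools. The groups did not overlap, but the difference of -0.42 (log2, SE 0.09, adjusted p = 0.00903 from limma) was short of 1.5-fold. For Ppara, the receptor of fatty acid oxidation genes, it was -0.03 (SE 0.14), and for Ppard 0.37 (SE 0.07). No difference in these receptors reached 1.5-fold. Receptor activity was not measured, and the part of these receptors in the changes of the members was not tested.

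**Figure D4:**
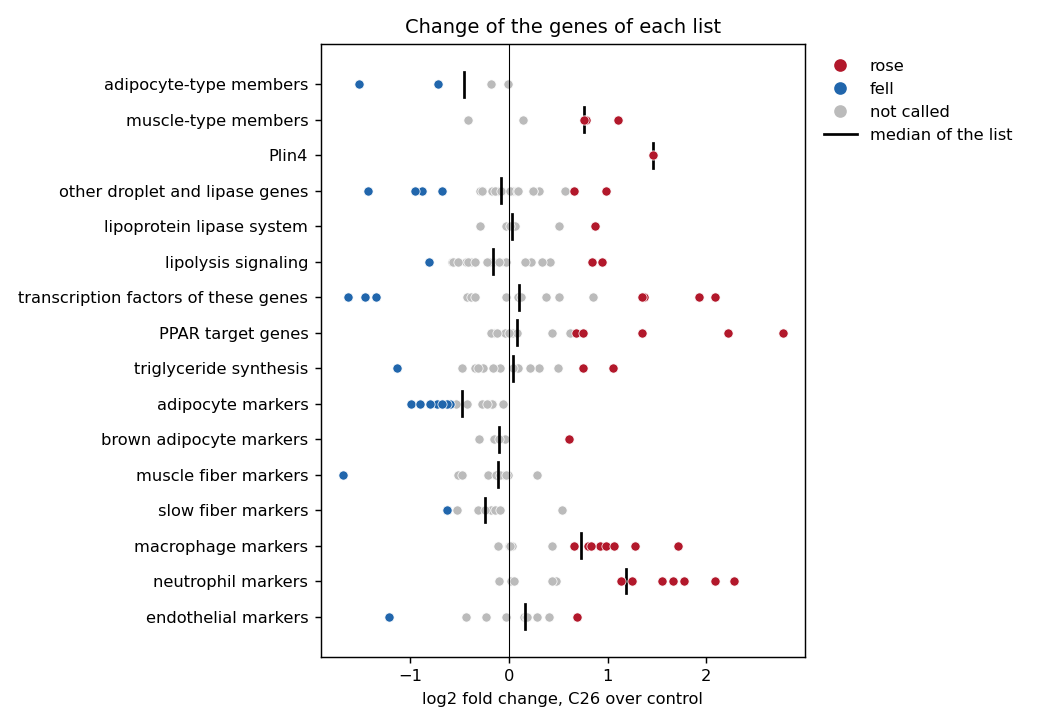
Log2 fold change, C26 over control (horizontal axis), of the members by type and of the genes of 13 further lists (rows), with genes that rose in red, genes that fell in blue, genes that did not pass in grey and the median of each list as a line. Adipocyte markers lie below 0 throughout (median -0.48), and neutrophil (median 1.19) and macrophage markers (0.73) lie mostly above it.

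Other cell types of the muscle were checked with their markers. Of 12 skeletal muscle fiber markers 1 fell, Casq1, and 11 did not pass (0 fell in a test with unequal variances), and the actin gene Acta1 (-0.05, SE 0.07) and the creatine kinase gene Ckm (-0.02, SE 0.07) differed little. The summed level of this list was 15.61 to 15.69 in C26 pools and 15.82 to 15.87 in control pools (log2). Among its bright genes were Casq1, with means of 10.69 in C26 and 12.37 in control muscle, and Pvalb, with 12.04 and 12.55. Of 9 slow fiber markers 2 fell, Myl3 and Casq2, and 0 fell with the arrays centred on their medians, where 1 rose. Without C26 replicate 1 or without control replicate 1, 1 of them fell and 1 rose. Myh7, the slow myosin gene, had a log2 fold change of -0.18 (SE 0.08).

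Of 14 measured macrophage markers 8 rose and 0 fell, with a summed level of 10.58 to 10.66 in C26 pools and 9.87 to 10.04 in control pools, although Adgre1, the F4/80 gene, had a log2 fold change of 0.00 (SE 0.08). Of 12 neutrophil markers 7 rose, with a summed level of 8.16 to 8.39 in C26 and 7.10 to 7.21 in control pools. S100a8, a calprotectin gene, averaged 5.25 in C26 and 3.16 in control muscle, under the background, and was at least 2.70-fold higher against that level. The control means of Cxcr2, Retnlg and Mmp8 also lay under it, with bounds of at least 1.90-fold, 2.69-fold and 1.29-fold, the last of which is short of 1.5-fold. Ngp, also counted among the 7, lay under the background in each group, so that S100a9 and Csf3r were the only markers of this list that rose with both means above it. Of 10 endothelial markers 1 rose and 1 fell, and 0 rose without C26 replicate 1 or by a test with equal variances. Pecam1, the CD31 gene, had a log2 fold change of 0.15 (SE 0.09). Plin2 and Plin3 are also made by macrophages, and the part of these cells in the values was not tested.

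The genes most like Plin1 and Plin4 were sought among 13344 named genes above background, by the root mean square difference of the 6 pool values after the control mean of each gene was subtracted (log2). The closest to Plin1 were Ufsp1 (0.09), Sh3bgr (0.09), Hacd1 (0.10), Mdga1 (0.10) and Clcn1 (0.10), with log2 fold changes of -1.44 to -1.58. Clcn1 encodes the chloride channel of skeletal muscle. The measure asks for a change of the same size, and the lowest log2 fold change of an adipocyte marker was -0.99 (Aqp7). No gene of the adipocyte list could therefore be among the 5. Which cells the Plin1 signal came from was not tested. The closest to Plin4 were Arhgap26 (0.06), Nox4 (0.08), Sorbs3 (0.09), Slc7a6 (0.10) and Cebpb (0.10), with log2 fold changes of 1.36 to 1.51.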

How the data were processed

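Deposited log2 values of 6 arrays had been made by the authors with RMA in GenePattern, which corrects background, normalizes by quantiles and summarizes probes, using the Brainarray custom CDF version 13 with 1 probe set per gene. RNA integrity numbers were at least 8.0. Quantile normalization makes arrays comparable and would hide a change common to all genes. For the arrays no genome build was named in the sources used here. Names came from the platform annotation (2420 probe sets are unnamed, 6 carry several symbols and 4 share one).

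C26 was compared with control by limma 3.58.1 under R 4.3.3 (moderated two-sided test, Benjamini-Hochberg over 21212 probe sets), and exact permutation tests used SciPy 1.17.1 in Python 3.11.15. Each array measured 1 pool, and the 3 pools per group limit the precision. The members, the 13 gene lists beside them and their split were chosen with earlier results of these data known. All members were named. The other lists gave up to 4 called genes of largest change and defining markers, while any gene of the droplet and adipocyte lists could be named, and for Plin1 and Plin4 the 5 most alike genes. Sema6b, Lrg1, Tnfaip8l1, Ticam1, Fitm2, Lpl, Gpihbp1, Prkaca, Pparg, Ppara, Ppard, Cpt1b, Ngp, S100a9, Csf3r, Ucp3 and Ppargc1a were named after their values were seen. Alternatives were two-sample tests with equal or unequal variances (the methods name a parametric test without stating which), other thresholds, robust or trended limma, leaving out dim probe sets, 3 scalings, a replicate block and leaving out each array. Scripts were tested on simulated data.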

Additional observations from a re-analysis of the deposited data

How the results depend on the processing

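Each of the 10 genes was refitted under 17 alternatives. Plin1, Plin4 and Pnpla2 passed in all 17, with log2 fold changes of -1.62 to -1.37, 1.39 to 1.58 and 1.04 to 1.19 and adjusted p-values of at most 0.0396, and Plin2, Cidec and Lipe passed in none. With at least 2-fold required, 2 members rose and 1 fell, as Plin3 (0.79), Plin5 (0.76) and G0s2 (-0.72) no longer passed. G0s2 also did not pass in a test with unequal variances (-0.72, adjusted p = 0.111), nor with a replicate block (-0.56), so that 1 member fell in each. Its adjusted p ran from 0.000827 to 0.111 over the alternatives. Without a fold minimum Abhd5 passed (-0.41). The replicate number was used as a block because C26 and control pools share numbers 1 and 3. Control replicate 2 and C26 replicate 4 have no partner, so the block fit compared only the pools numbered 1 and 3. Deviations of same-numbered pools from their group means correlated at -0.06 and -0.06, against -0.03 to 0.07 for other pairs. So few pairs cannot settle whether same-numbered pools share more than a number. The block gave 1235 higher and 1069 lower probe sets, and a test with equal variances gave 1131 and 936, against 1261 and 1049. With unequal variances these were 760 and 621.

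Leaving out each array in turn changed no call of a member, and the difference of the type medians ran from -1.33 to -1.14. Median centring, quantile normalization and cyclic loess moved the median of all probe sets by at most 0.06 and also changed no call of a member. With median centring 1534 probe sets rose and 839 fell, against 1261 and 1049. Over all 17 alternatives the genes of the wider droplet list that rose numbered 0 to 4 and those that fell 1 to 6. For adipocyte markers 0 to 9 fell, with 0 at 2-fold. In lipolysis signaling 0 to 4 rose and 0 to 8 fell. Of the transcription factor genes 4 to 6 rose and 3 to 5 fell. Macrophage markers that rose numbered 3 to 9 and neutrophil markers 0 to 8. The 0 came from keeping only probe sets above the median level. That filter left out all 7 neutrophil markers that rose, so the 0 was set by it and not by a test. Signal near background limits Lep, Tshr, Prkar2b, Acot1, S100a8, Cxcr2, Retnlg, Mmp8 and Ngp.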

Other observations

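Genes under PPAR control and genes of triglyceride synthesis, which share droplet lipid with the members, were counted in the same way. Of 15 measured PPAR target genes 5 rose and 0 fell, with a median log2 fold change of 0.09. Acot2, a mitochondrial thioesterase gene, rose by 2.22 (SE 0.10, adjusted p = 3.53e-06 from limma), with 9.85, 9.87 and 9.83 in C26 pools, against 7.67, 7.43 and 7.80 in control pools. Its relative Acot1 averaged 6.57 in C26 and 3.80 in control muscle, just under the background, and was at least 6.29-fold higher against that level, and these near-identical genes may share signal. Pdk4, which turns muscle from glucose to fat oxidation, rose by 1.35 (SE 0.19), and Cd36, a fatty acid uptake gene, by 0.75 (SE 0.07). Cpt1b, the carnitine transferase gene of muscle mitochondria, had a log2 fold change of 0.07 (SE 0.07). Of 15 measured genes of triglyceride synthesis 2 rose and 1 fell, and 2 fell without control replicate 3. Lpin1, a phosphatidate phosphatase and coactivator gene, rose by 1.06 (SE 0.09) and Lpin2 by 0.75 (SE 0.11), while Gpam, which starts glycerolipid synthesis, fell by 1.13 (SE 0.10), and Dgat2, which makes triglyceride, had a log2 fold change of 0.10 (SE 0.09).

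Control replicate 3 lay far from the other control pools for Pdk4 and Ucp3. Its Pdk4 value was 11.34, against 10.55 and 10.60 in control replicates 1 and 2, and its Ucp3 value, of an uncoupling protein gene of muscle, was 9.20 against 8.37 and 8.35. It was the highest control pool for 8 of 15 PPAR target genes and for 3 of 5 muscle-type members, and the lowest for 3 of 4 adipocyte-type members and 10 of 16 adipocyte markers. Over all probe sets it was the highest control pool for 34.1% and the lowest for 35.8%. For Cd36 and Cpt1b it was the lowest. Ucp3 had a log2 fold change of 0.62 (adjusted p = 0.05002 from limma), and it rose by 0.90 (SE 0.09, adjusted p = 0.000328) without control replicate 3. Ppargc1a, a coactivator gene of mitochondrial biogenesis, had values of 7.07, 8.37 and 8.21 in C26 pools, against 7.13, 7.09 and 6.87 in control pools, so that C26 replicate 1 lay within the control range. Its log2 fold change was 0.86 (SE 0.29, adjusted p = 0.0588), and 1.26 (SE 0.11, adjusted p = 0.000278) without C26 replicate 1.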
